A study of Malus hupehensis with 3 samples.

Results

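The predicted miRNAs of 21 nt are small RNAs of *Malus hupehensis*, an apple species, that matched no listed miRNA. The authors put them forward with the program Mireap, from the fold of the surrounding sequence in the genome of domesticated apple (*Malus × domestica*). The predicted miRNAs were taken from the deposited counts by sequence, as entries listed as predicted and exactly 21 nt long. This gave 84 sequences, 4 of which were not analysed here, and the 80 that remained are 80 of 172 predicted miRNAs and of 257 distinct deposited sequences. Reads were available for leaves of 2 growth phases. Adult leaves (A) came from the tops and juvenile leaves (J) from the base of the same 18 trees, which were 6 years old, given no treatment in the labels, and pooled into 1 small RNA library per phase. Another library, a degradome, holds the 5′ ends of cut mRNAs from J. Phase and position on the tree cannot be told apart, and with 1 library per phase a difference between A and J has no replicate check and carries no p-value.

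Plant miRNAs are cut from hairpin precursors by a Dicer-like enzyme that leaves a short duplex with 2 unpaired bases at the 3′ end of each strand, and the usual product is 21 nt long. A single strand is loaded into an Argonaute protein and the other, the miRNA*, is mostly lost. In Arabidopsis, AGO1 favours a first U, AGO2 and AGO4 a first A, and AGO5 a first C. A loaded miRNA pairs with an mRNA almost along its whole length and the mRNA is cut opposite bases 10 and 11 of the miRNA, counted from its 5′ end. A degradome read that begins at that place is therefore the usual sign of a target. In animals the seed, bases 2 to 8, is the main contact with the target, and plant miRNA families also tend to share it.

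The depth of the libraries was 16.2 M clean reads in A and 13.5 M in J (M is 1000000). Levels are given as reads per M clean reads (RPM), and ratios as J over A on that scale with an exact (Clopper-Pearson) 95% interval. The intervals cover counting error only, because each phase is 1 library. Reads amplified by PCR are not independent molecules, so the intervals may be too narrow even for that. As a check of the phase labels, the summed known sequences of mdm-miR156, the miRNA of the juvenile phase, had a ratio of 20.1 (19.9 to 20.3), and those of mdm-miR172, which is known to rise with age, had a ratio of 0.556 (0.544 to 0.568). Leaf marker genes could not be checked in tables of miRNAs.

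The sequences on which the results turn are shown with the seed in capitals. The first set holds the entries with the most reads in both libraries, in A alone (novel_miR80) and in J alone (novel_miR479), and the 2 entries with the largest and smallest ratio (novel_miR58 and novel_miR82).
novel_miR22: uAGGCGUAgauagaccguggg
novel_miR276: uUGAGGAUgcauaguuuucag
novel_miR302: aAGAAACGgcguaccuuucua
novel_miR343: cUGAUGUAgagaaaguguuga
novel_miR320: aCAAAAGAaacguuggaugau
novel_miR479: uAGGGCAAgaagaauagcaca
novel_miR80: cCUUUGAUgggagagaucugg
novel_miR58: aUUGUGGAagauguagaguag
novel_miR82: uUAACUUGgcuauuguagaac

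The second set shows relations between entries. The pair novel_miR363 and novel_miR38 and the pair novel_miR455 and novel_miR237 are the same sequence at other lengths, novel_miR509 and novel_miR510 are shifted by 1 base, and the last 3 pairs share a seed or most of their bases.
novel_miR363: aAGUAUUAuggacuuuuggca
novel_miR38: aAGUAUUAuggacuuuuggcac
novel_miR455: gGACACCGgaaguaggagggc
novel_miR237: aGGACACCggaaguaggagggca
novel_miR509: cAAGCAAGuagaagugcacau
novel_miR510: aAGCAAGUagaagugcacauu
novel_miR15: uGGACAAAacuuggaaguugg
novel_miR158: aGGACAAAgcugcauauuuag
novel_miR106: uCAAAUUUcaaugguucggau
novel_miR440: uCAAAUUUuaagagucuggau
novel_miR2: uAGAUAGGugguacaaaugug
novel_miR383: uAGAGAUGugauacaaaugug

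The last set holds sequences that pair with another deposited sequence, each followed by a partner.
novel_miR486: uGCAUUUGcaccugcacuugu
novel_miR128: aGGUGCAGgugccagugcagg
novel_miR466: aGGUAUUGgcgcgccucaauu
mdm-miR171a: uUGAGCCGcgucaauaucucc
novel_miR492: cGUGGCAUcaucaagauucac
mdm-miR172d: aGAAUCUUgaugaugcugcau

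The 80 sequences together held 20185 reads in A and 26542 in J. This was 0.124% of the clean reads in A (0.123 to 0.126) and 0.196% in J (0.194 to 0.198). Most of it came from novel_miR22 and novel_miR276, which took 75.7% of these reads in A (75.1 to 76.3) and 69.2% in J (68.6 to 69.7). Outside them the levels were low, since the median of the larger count of the 2 libraries was 38 reads over all 80 entries. The level reached 10 RPM in 9 entries in A and in 17 in J.

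The most abundant entry, novel_miR22, reached 489 RPM in A from 7929 reads and 770 RPM in J from 10433, a ratio of 1.58 (1.53 to 1.62). Next was novel_miR276 with 7343 and 7927 reads, or 453 and 585 RPM and a ratio of 1.29 (1.25 to 1.33). Both begin with U, and both were higher in J on clean reads by less than 2-fold. The next, novel_miR302, begins with A and had 1039 reads in A against 1877 in J (64.1 and 139 RPM). It was followed by novel_miR343 with 488 and 745 reads, novel_miR320 with 264 and 545, novel_miR128 with 521 and 462, and novel_miR133 with 339 and 467. Of these 7, novel_miR128 alone had fewer reads in J, and on the RPM scale its level was 32.1 in A against 34.1 in J, so that the interval of its ratio of 1.06 (0.935 to 1.21) held 1. The 10 entries with the largest counts were completed by novel_miR149 with 182 and 352 reads, novel_miR102 with 175 and 282, and novel_miR479, which was listed at 0 in A and had 258 reads in J.

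**Figure D1:**
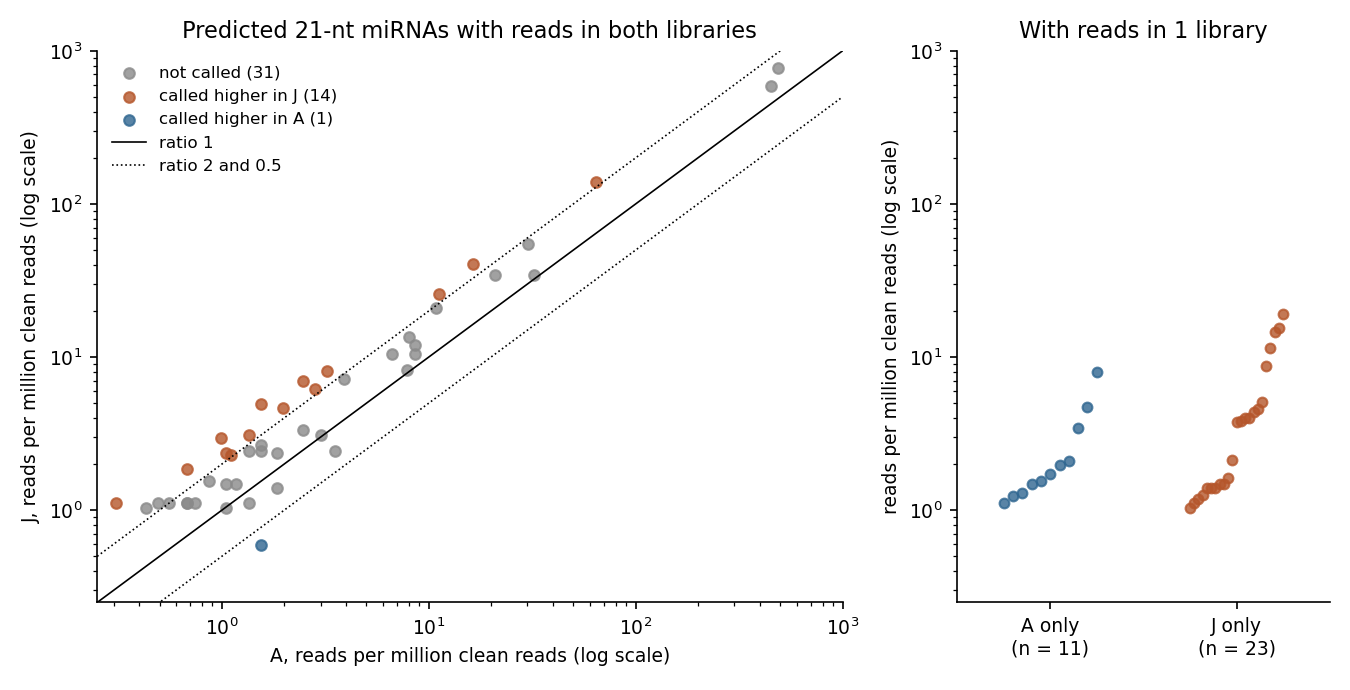
Level of each predicted 21-nt miRNA in A (x axis) and J (y axis) in RPM on log scales for the 46 with reads in both libraries, and, to the right, the level of the 11 with reads in A alone and the 23 with reads in J alone, sorted within each group. Most points of the left panel lie above the line of equal levels, at this scaling of the libraries, and all entries of 1 library lie below 20 RPM.

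Of the 80 sequences, 46 had reads in both libraries, 23 in J alone (28.7%) and 11 in A alone (13.8%). Over the 252 distinct sequences of the table with reads, the shares were 20.2% in J alone and 20.6% in A alone. On clean reads the ratio was above 1 in 41 of the 46 and below 1 in 5, whereas on the summed reads of known miRNAs it was below 1 in 37 of the 46. Over all 149 distinct sequences with reads in both libraries, the ratio on clean reads was above 1 in 109. For the 46, the interval on clean reads lay above 1 in 25, below 1 in 1, and held 1 in 20. A call needed a 2-fold ratio in either direction (2 and above, or 0.5 and below), an interval that left out 1, and a library with 10 or more reads. Among the 46, the calls toward J numbered 14 (30.4%) and those toward A numbered 1 (2.17%). Over all 140 distinct sequences that could be called, 30.7% were called toward J and 7.86% toward A. The share called higher in J among the predicted 21-nt miRNAs was thus near that of the whole table.

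The ratios of the 46 ran from 0.383 to 3.59 with a median of 1.70. In J the level was highest relative to A for novel_miR58, which had 5 reads in A against 15 in J and a ratio of 3.59 with the widest interval of the set (1.24 to 12.6). Better counted were novel_miR325 with 25 and 67 reads (ratio 3.21, 1.9999 to 5.30), novel_miR223 with 40 and 94 (2.81, 1.92 to 4.18) and novel_miR207 with 52 and 110 (2.53, 1.81 to 3.59). The narrowest intervals among the calls were those of the abundant entries. For novel_miR320 the ratio was 2.47 (2.13 to 2.87), for novel_miR149 it was 2.32 (1.93 to 2.78) and for novel_miR302 it was 2.16 (2.004 to 2.34). The other calls, novel_miR257, novel_miR158, novel_miR15, novel_miR71, novel_miR151, novel_miR4 and novel_miR284, had 11 to 46 reads in A, 25 to 84 in J and ratios from 2.06 to 2.99. With the libraries scaled by known miRNA reads, novel_miR149, novel_miR302, novel_miR4, novel_miR71, novel_miR151 and novel_miR284 fell below a ratio of 1.

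The single entry called higher in A was novel_miR82, with 25 reads in A against 8 in J, or 1.54 and 0.591 RPM and a ratio of 0.383 (0.149 to 0.876). The other 4 below 1 were novel_miR114 (57 and 33 reads, ratio 0.693), novel_miR182 (30 and 19, ratio 0.758), novel_miR300 (22 and 15, ratio 0.816) and novel_miR340 (17 and 14, ratio 0.986), and each interval held 1. On clean reads a difference of the size of theirs could not be told from equal levels at these counts. This depended on the scale, since the intervals below 1 numbered 1 on clean reads, 2 with no scaling and 20 on known miRNA reads. Another 2 entries had a ratio of at least 2 but no call, namely novel_miR119 with 7 and 14 reads (2.39, 0.904 to 7.01) and novel_miR194 with 8 and 15 (2.24, 0.894 to 6.11). Just under the threshold were novel_miR77 at 1.996 with 9 and 15 reads and novel_miR102 at 1.93 with 175 and 282 reads, the latter with an interval of 1.59 to 2.34.

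**Figure D2:**
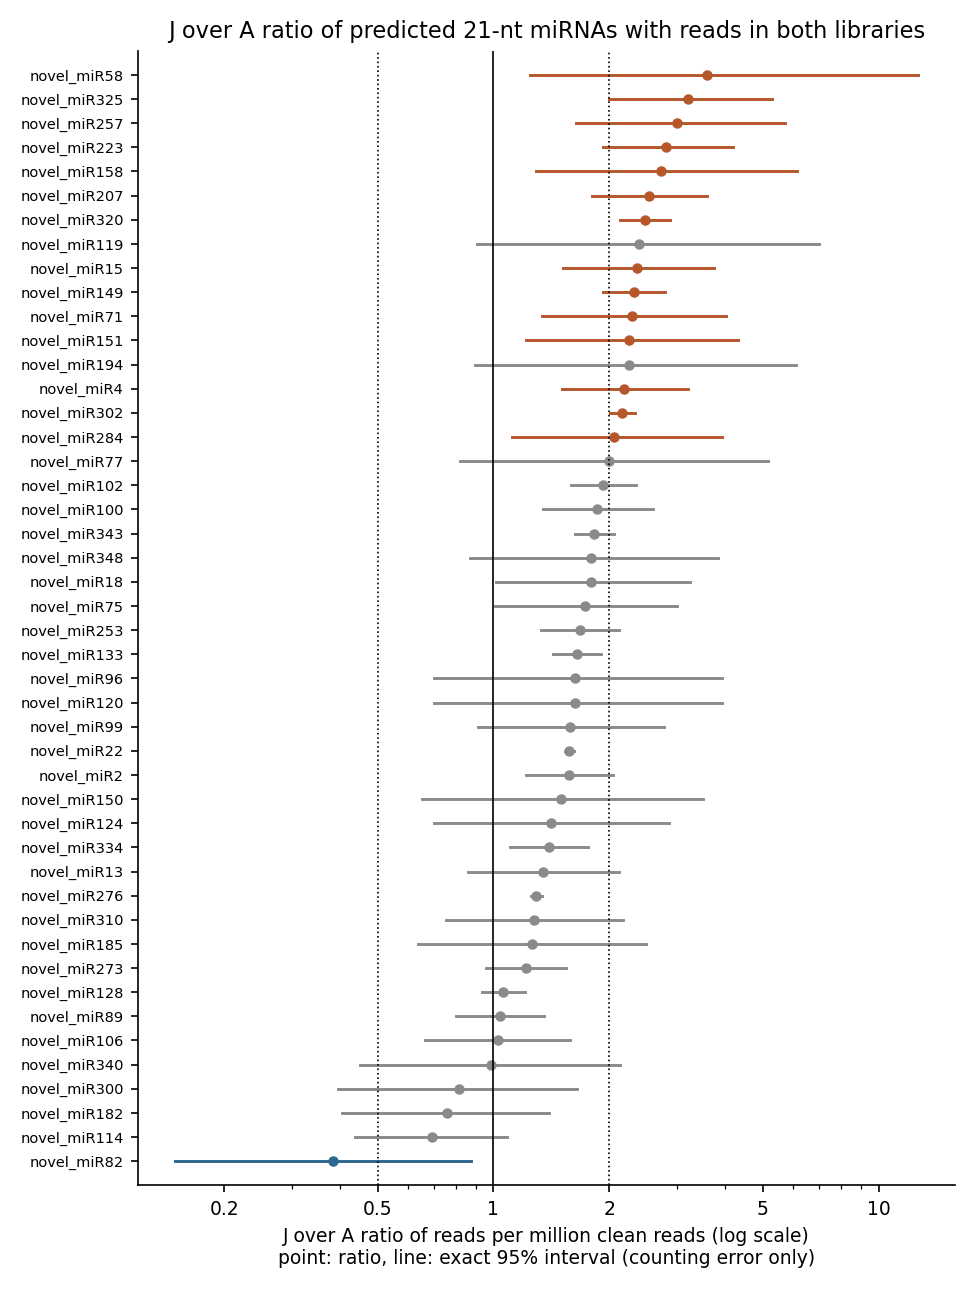
Ratio of J over A (x axis, log scale) for each of the 46 predicted 21-nt miRNAs with reads in both libraries, with points for the ratio on clean reads and lines for the exact 95% interval, brown where called higher in J, blue where called higher in A and grey where not called. The solid line marks 1 and the dotted lines 0.5 and 2. The 14 calls toward J run from 2.06 to 3.59, and with known miRNA reads as the scale 6 of them lie below 1.

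How many sequences were higher in J depended on the scale. Relative to clean reads the other scales moved the ratios by between -0.26 (no scaling) and -1.23 (known miRNA reads) on the log2 scale. The median log2 ratio of the 46 was 0.77 on clean reads, 0.46 on known miRNA reads with mdm-miR156 and mdm-miR535 left out, 0.23 under the trimmed mean of M values (TMM), 0.076 with the median known ratio set to 1, and -0.47 on all known miRNA reads. On the same scales the number called higher in J was 14, 6, 2, 0 and 0. The order of the 46 among themselves does not depend on the scale. The highest ratio over the lowest within the set, novel_miR58 against novel_miR82, is therefore the same on each.

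**Figure D3:**
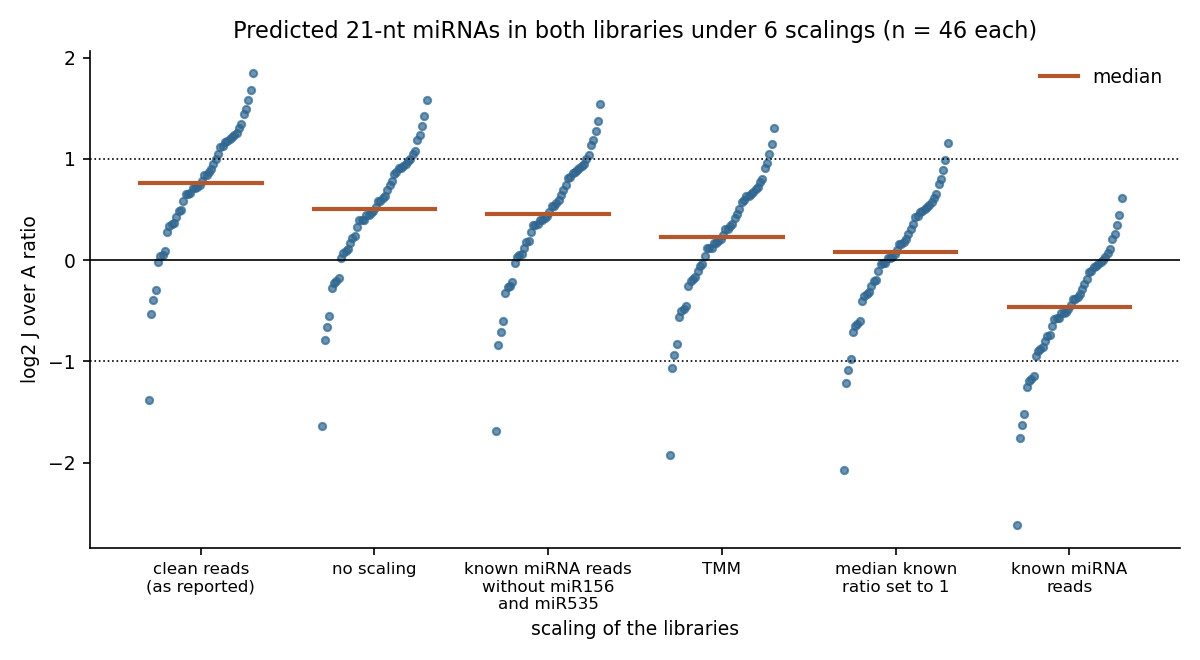
The log2 ratio of J over A (y axis) of the 46 predicted 21-nt miRNAs with reads in both libraries under 6 ways of scaling the libraries (x axis), with a point per miRNA, sorted within each scaling, and a bar at the median. The solid line marks equal levels and the dotted lines a 2-fold difference. The median falls from 0.77 on clean reads to -0.47 on known miRNA reads.

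The summed reads of the 80 sequences had a ratio of 1.57 (1.55 to 1.60) on clean reads, and of 0.670 on known miRNA reads. Without novel_miR22 and novel_miR276 the ratio on clean reads was 1.99. Set beside the other lengths on clean reads, the 66 predicted miRNAs of 23 nt had a summed ratio of 0.426 (0.404 to 0.449), the 22 of 20 or 22 nt had 1.10 (1.01 to 1.21), and the 64 known sequences of 21 nt had 2.54 (2.54 to 2.55). The median log2 ratio of entries with reads in both libraries was 0.77 at 21 nt (46 entries), -0.18 at 23 nt (25 entries), 1.58 at 20 or 22 nt (8 entries) and 0.57 in the known sequences of 21 nt (48 entries), against 0.58 over all 149 sequences of the table with reads in both. The order of the classes thus depended on the measure. By summed reads the predicted sequences of 21 nt lay below the known ones and above those of 20 or 22 nt, and by the median it was the reverse, while those of 23 nt were lowest by both. The scale does not change either order, and the differences were not tested, since each phase is 1 library. The paper describes read lengths as similar between the phases, except that reads of 21 nt were more frequent in J. Whether the contrast between lengths is particular to the predicted miRNAs or follows that difference among all reads was not tested. The place of the known sum depended on mdm-miR156 and mdm-miR535. Relative to known reads of any length without these families, the summed ratio of the predicted sequences of 21 nt was 1.27, against 0.670 relative to all known reads.

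Entries of 1 library were found at each length. At 21 nt 23 of 80 were listed in J alone and 11 in A alone, at 23 nt 12 of 66 were listed in J alone and 29 in A alone, and at 20 or 22 nt 6 of 22 in J alone and 8 in A alone. No ratio is given for these entries. The smallest count above 0 among the 80 sequences was 5 reads in A and 8 in J, so a 0 may stand for a low count that was not listed, and a level below that of the listed entries cannot be told from absence. Counts ran from 14 to 258 in the entries of J alone (median 51) and from 18 to 130 in those of A alone (median 28).

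In J alone the most reads were those of novel_miR479 (258 reads, 19.04 RPM), novel_miR485 (211 reads, 15.6 RPM), novel_miR486 (198 reads, 14.6 RPM), novel_miR402 (156 reads, 11.5 RPM) and novel_miR388 (119 reads, 8.78 RPM). These 5 each had more reads than most entries found in both libraries, whose median was 41 reads in J. In A alone the leading entries were novel_miR80 (130 reads, 8.01 RPM), novel_miR319 (76 reads, 4.69 RPM), novel_miR254 (56 reads, 3.45 RPM), novel_miR11 (34 reads, 2.10 RPM) and novel_miR282 (32 reads, 1.97 RPM). None of the 11 reached 10 RPM, whereas 4 of the 23 in J alone did.

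For 2 of the entries in J alone, the same bases were listed in A under another name and length. The 21 bases of novel_miR363, with 19 reads in J and 0 in A, are the first 21 of novel_miR38, an entry of 22 nt with 20 reads in A and 0 in J. Likewise the whole of novel_miR455, with 59 reads in J and 0 in A, lies inside novel_miR237, an entry of 23 nt with 123 reads in A and 0 in J. Read as entries, these are 4 sequences found in 1 phase each, and read as stretches of bases they are 2 stretches with reads in both phases that differ in the length listed. Another pair, novel_miR509 and novel_miR510, each with 20 reads in J and 0 in A, shares 20 bases, so the 2 entries may hold the same reads. Setting aside the 4 of these that are 21 nt long, 30 of the 34 entries of 1 library remained.

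Further entries were close relatives without a long shared run. The sequence novel_miR2, with 108 reads in A and 142 in J, differs by 3 mismatches over 21 bases from novel_miR383, listed at 0 and 62. A similar distance, 3 mismatches over 19 bases, separates novel_miR223 (40 and 94 reads) from novel_miR495 (0 and 51). In both pairs the entry of J alone has a relative with reads in both libraries. The 3 entries novel_miR106, novel_miR440 and novel_miR447 lie within 2 or 3 mismatches of the 23-nt novel_miR291, listed with 32 reads in A but 0 in J. The first of them had 49 reads in A against 42 in J, and the others had 52 and 19 reads in J alone. The last such pair is novel_miR325 (25 and 67 reads) and the 20-nt novel_miR426 (0 and 43), with 2 mismatches over 20 bases.

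None of the 80 lay within 3 mismatches of a known sequence over 18 or more aligned bases, the closest having 5, and none shared its seed with one. Among themselves the 80 held 78 distinct seeds. The seed of novel_miR15 is also that of novel_miR158, and both were called higher in J, with 32 and 63 reads for the first and 11 and 25 for the second. Outside the seed these 2 sequences differ and they do not begin with the same base. The other shared seeds join novel_miR106 to novel_miR440, novel_miR363 to novel_miR38, novel_miR284 to the 23-nt novel_miR59, and novel_miR388 to the 23-nt novel_miR324 and novel_miR429.

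Some of the 80 paired closely with another deposited sequence, a comparison chosen after the values were seen. Aligned as a duplex with 2 unpaired bases at each 3′ end, novel_miR128 and novel_miR486 paired at 18 of 19 positions, 16 by Watson-Crick pairs and 2 by G:U. In the same arrangement novel_miR466 paired with mdm-miR171a at 18 of 19 positions. Over 8600 pairs of 21-nt sequences the median was 7 of 19, and 5 pairs reached 17, namely these 2 and novel_miR466 with 3 further mdm-miR171 sequences. The arrangement is that of a miRNA and its miRNA*, but the precursors were not analysed here, and whether the strands come from 1 hairpin was not tested. The counts of the first pair differed in pattern, since novel_miR128 had 521 reads in A and 462 in J while novel_miR486 had 0 and 198. For the other duplex, novel_miR466 had 0 and 19 reads and mdm-miR171a had 312 and 439.

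With ends offset differently, novel_miR492 paired with mdm-miR172d at 18 of 20 positions, leaving 1 base at each 3′ end. It was listed at 0 reads in A and had 16 in J, whereas mdm-miR172d had 26576 reads in A and 12330 in J. The entry was thus listed in the library where mdm-miR172d had fewer reads. As the 2 entries of this pair are listed apart, one as predicted and one as known, their counts were kept apart here as well. Further pairs reached 18 or more paired bases. With another offset, novel_miR466 paired with mdm-miR171c and mdm-miR171g at 19 of 20 positions each. For novel_miR492 the value was also 18 of 20 with mdm-miR172a, mdm-miR172i, mdm-miR172l and mdm-miR172m. The last pairs were novel_miR124 with the 23-nt novel_miR59 (19 of 21) and novel_miR319 with the 23-nt novel_miR249 (18 of 21). In these last pairs most were G:U pairs, 13 in the first and 11 in the second.

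Of the 80 sequences, 45 begin with U (56.2%), 20 with A, 13 with C and 2 with G. Weighted by reads, the share with U was 84.3% in A and 81.8% in J, most of it from novel_miR22 and novel_miR276. Over all 257 distinct deposited sequences the share with a first U was 54.5%, near that of the 80. The share of sequences with a first U was 30.3% at 23 nt, where 51.5% begin with A. It was 63.6% at 20 or 22 nt and 64.1% in the known sequences of 21 nt. Split by first base, the median ratio on clean reads was 1.66 for U (26 entries with reads in both libraries), 1.78 for A (14 entries) and 1.83 for C (5 entries). The ranges of ratios overlapped across all 3 first bases. The 14 calls toward J comprised 8 entries with U, 5 with A and 1 with C. Entries of J alone outnumbered those of A alone among sequences with U (15 and 4), but were as many among those with A (3 and 3) and with C (4 and 4).

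**Figure D4:**
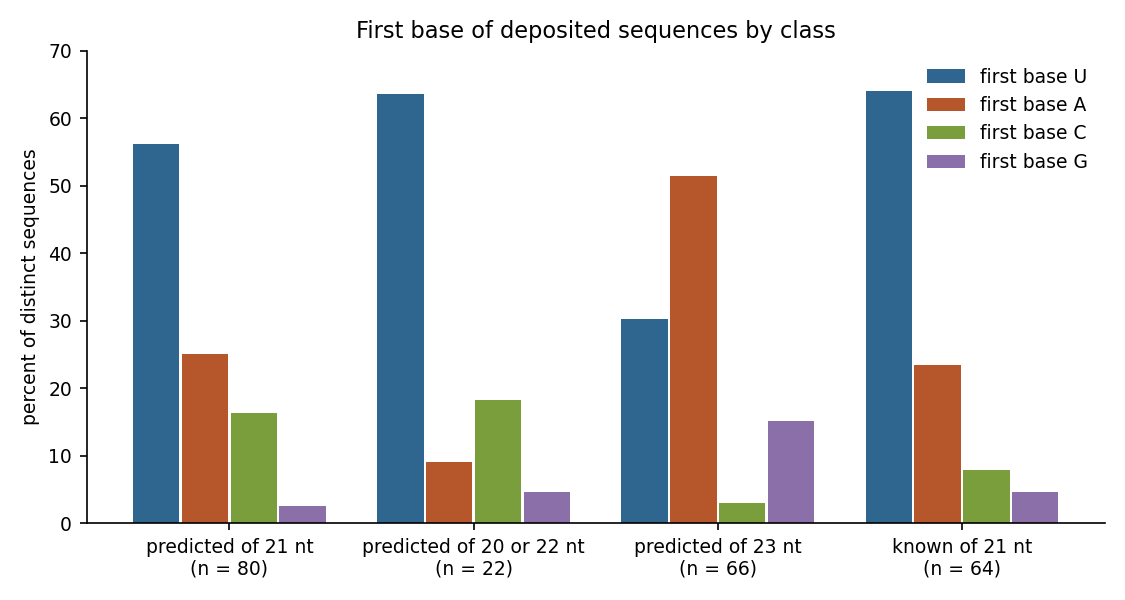
Percent of distinct sequences (y axis, from 0) that begin with U, A, C or G in 4 classes of the deposited table (x axis), counted as sequences and not as reads. A first U is the most frequent in the predicted sequences of 21 nt (56.2%) and in the known sequences of 21 nt (64.1%), and a first A in the predicted sequences of 23 nt (51.5%).

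The degradome listed 68 records for 11 of the 80 sequences (13.8%), in 37 gene models. The authors matched the degradome reads to the genome of domesticated apple. The gene models and the bases at the sites are therefore taken to be of that species and not of *M. hupehensis*. Over all 172 predicted miRNAs 20 had a record (11.6%), among them 4 of the 22 of 20 or 22 nt (18.2%) and 1 of the 66 of 23 nt. Of the 11, 6 had reads in J alone, 4 in both libraries and 1, novel_miR11, in A alone, although the degradome is of J. Each record gives a gene model, the position of the site in it, 31 bases around the site, a score that penalises mismatches (0 is perfect pairing and 4 the highest kept) and a site count, taken as reads that begin at the site, which the file does not state. The site counts ran from 25 to 395 with a median of 76, and the depth of the degradome was not used. There was no degradome of A, so nothing here compares the phases.

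Few of the records lay at the usual place of cleavage. The site was opposite base 10 of the miRNA in 6 of the 68 records (8.82%), from novel_miR486, novel_miR11 and novel_miR477. By the same reckoning it was opposite base 10 at 129 of 202 distinct sites of known miRNAs (63.9%). A site opposite bases 9 to 11 was recorded 24 times, for 5 of the 11. The score was 4, the highest kept, in 32 of the 68 records.

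The pairing site of the records with the largest counts and of each repeated kind of site is shown 5′ to 3′ with the base at which the degradome reads begin in capitals, under the name of the miRNA and the gene model.
novel_miR486, MDP0000147872: tcaggtgcaggTgcaaatgca
novel_miR11, MDP0000138851: aaccatggtgcTaaaacttca
novel_miR310, MDP0000278387: aagaatgatatttCaacctgt
novel_miR89, MDP0000142444: ttgtgtttgatgAtgtgtgga
novel_miR89, MDP0000206335: ttgtgttggatgAtgtgtgga
novel_miR477, MDP0000159395: tcagccgcttcTtcttcttct
novel_miR207, MDP0000145144: tttcttcttCttcttctgatg
novel_miR492, MDP0000287771: gcgaAtgatgatgatgtcatg

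The largest counts belonged to novel_miR486, whose site had 395 reads in MDP0000147872 (position 240 of 3342 bases) and MDP0000196131 (position 375 of 3282). Both gene models are named for CCHC-type zinc knuckle proteins, a fold that binds nucleic acid. The bases of the site and its count are the same in both, so the records may stand for 1 set of reads. The pairing had 1 mismatch and 1 G:U pair, a score of 1.5, and the site lay opposite base 10. This is the sequence with 198 reads in J and 0 in A that pairs with novel_miR128. Its other record, in a gene model for phospholipase D delta (MDP0000125742), an enzyme that splits membrane phospholipids, had a count of 55 at a score of 4 and lay opposite base 11.

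Next was novel_miR11, with a count of 229 opposite base 10 in MDP0000138851 and MDP0000208234 (position 594 in each), and 145 at the base before it in MDP0000138851. The gene models are named for flavin-containing monooxygenases, a family in which the YUCCA members make auxin. The score was 1, with 1 mismatch. In the listed sequence of novel_miR11 1 base is an ambiguous letter, so it is not shown. The miRNA had 34 reads in A and was listed at 0 in J, the phase from which the degradome came.

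Perfect pairing was found for novel_miR310, which had 30 reads in A against 32 in J. At 7 gene models the count was 82, and 5 of these paired at all 21 bases with a score of 0. An 8th, MDP0000282616, had a count of 32 at a score of 3.5. The site lay opposite base 8 of novel_miR310 in all 8 records, and not opposite base 10. No protein name was at hand for these gene models, and shared bases and counts mean that the 8 records came down to 3 distinct ones.

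All 9 gene models of novel_miR89, the entry with 128 reads in A against 111 in J (ratio 1.04, 0.798 to 1.35), are named for NB-ARC disease resistance proteins, the plant receptors that recognise pathogen effectors inside the cell. The count was 76 in 4 of them, 58 in 1 and 31 in 4, with scores from 2 to 3.5, and the site was opposite base 9 in every record. Read in the frame of the gene model, the bases around the site encoded in all 9 the kinase-2 motif of these proteins, a pair of aspartates followed by valine and tryptophan. Identical bases and counts left 4 distinct records of the 9.

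Repeats filled the sites of novel_miR477 and novel_miR207. The 20 records of novel_miR477 (0 reads in A and 22 in J) fell in 2 gene models for aldehyde dehydrogenase, 1 for a 5′-3′ exonuclease and 1 for OPC-8:0 CoA ligase, an enzyme of jasmonic acid synthesis. Counts were 78 to 138, every score was 4, and the sites lay opposite bases 7 to 14, with the 31 bases holding a run of 17 to 24 bases of period 3, repeats of CTT. In MDP0000159395, 7 adjacent positions from 50 to 56 were recorded. The count was 138 at both 50 and 53 and 119 at both 51 and 54, and 138 also recurred in the exonuclease gene model. Some of these records, the ones opposite base 10 among them, may therefore stand for the same reads. Of the 4 gene models, 2 were also listed for novel_miR329, a predicted miRNA outside the 21-nt set.

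The 12 records of novel_miR207, called higher in J with 52 and 110 reads, lay in 3 gene models for the precursor of phytosulfokine 4, a small peptide that promotes cell growth. Counts were 25 to 56 at scores of 3 to 3.5, opposite bases 11 to 17, and the run of period 3 was 14 to 16 bases. None of its records was opposite base 10. As with novel_miR477, the records lay at several positions along the repeat and not at 1.

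The other 5 with records had counts of at most 70. The 2 sites of novel_miR492, the sequence that pairs with mdm-miR172d, lay next to each other in 3 gene models of the BRI1-associated receptor kinase, a co-receptor of brassinosteroid signalling, with counts of 36 and 27 opposite bases 17 and 16. For novel_miR419 (0 and 14 reads) 3 sites in MDP0000180084, which has no protein name at hand, had counts of 70, 65 and 36. The site of novel_miR495 in an ENTH/VHS/GAT protein, of the kind that works in vesicle transport, had a count of 58. That of novel_miR106 in a late embryogenesis abundant protein had 34. The sites of novel_miR374 (0 and 15 reads) in 2 gene models of S-adenosyl-L-homocysteine hydrolase, an enzyme of the methyl cycle, had 31. Both gene models of novel_miR374 were also listed for novel_miR384, another predicted miRNA. All records of these 5 entries were opposite bases 13 to 17.

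**Figure D5:**
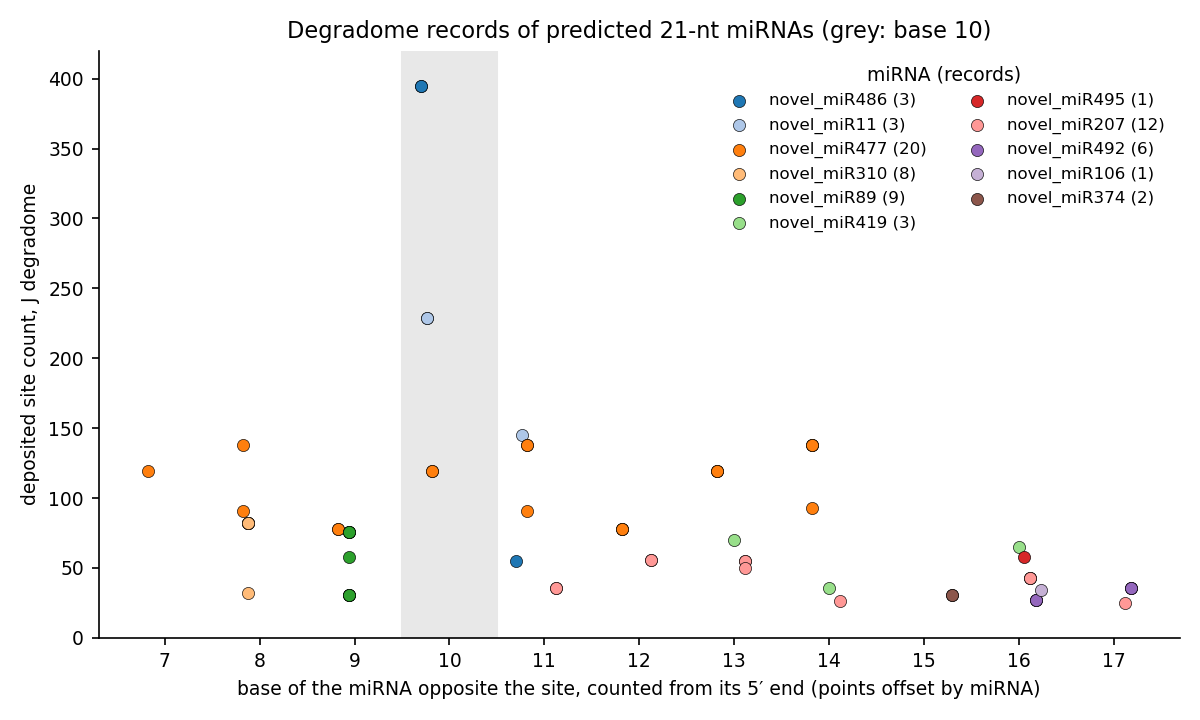
Site count of each degradome record (y axis, from 0) against the base of the miRNA opposite the site (x axis, counted from the 5′ end) for the 11 predicted 21-nt miRNAs with a record, a colour per miRNA, with the number of records in the key. Records with the same count and base lie on one another. The grey band marks base 10, where novel_miR486 has a count of 395, novel_miR11 229 and novel_miR477 119.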

How the data were processed

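Adult (A) and juvenile (J) leaves of 18 trees, 6 years old, gave 1 small RNA library each, and J gave 1 degradome. The authors kept reads of 18 to 30 nt, and deposited raw read counts, not normalized, for 380 entries. The degradome table the authors deposited holds PairFinder sites with other values, a site count and a mismatch score. Names, known or predicted by Mireap, came from the supplementary tables. Each distinct sequence was counted once, known ones at the largest count among their names, and scaled by the clean reads the paper states. The column of the paper's summary table for J repeats that for A and was not used.

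Intervals are exact 95% limits in SciPy 1.17.1 (Python 3.11.15, numpy 2.4.6), drawn in matplotlib 3.10.9, and the procedure was tested on simulated data. The simulated counts held no ratios near 2 and no variation between libraries, so they do not bear on calls near that limit. TMM came from edgeR 4.0.16 (R 4.3.3). The degradome site was taken as base 15 of the 31. A shared run was 18 or more bases, and relatives had at most 3 mismatches over 18 or more bases. Pairing between deposited sequences was searched after the values were seen. Entries were named by rule: the 10 with the most reads, those called, the 5 leading ones of each library alone, and those with a degradome record or an overlap. The near misses, the relatives, the entries below a ratio of 1 and those that pair were added after their values were seen. The sequences and lists were chosen with earlier results of these data known. Of the predicted sequences of 21 nt, 4 are not reported here.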

Additional observations from a re-analysis of the deposited data

How the results depend on the processing

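The scale decided the calls. Against 14 called higher in J and 1 in A on clean reads, the counts were 0 and 8 on summed known miRNA reads, 6 and 1 on these without mdm-miR156 and mdm-miR535, 0 and 3 with the median known ratio set to 1, 2 and 2 by TMM, and 7 and 1 with no scaling. A minimum of 50 reads gave 8 and 0, a ratio of 4 gave 0 and 0, a ratio of 1.5 gave 23 and 1, and a 99% interval gave 12 and 0. No minimum of reads gave 14 and 1. The summed ratio of 1.57 became 0.670, 1.27, 0.976, 1.08 and 1.31 in the same order of scales, 1.99 without novel_miR22 and novel_miR276, and 1.52 over entries with reads in both libraries (chosen after seeing the data). The median log2 ratio of 0.77 became -0.47, 0.46, 0.076, 0.23 and 0.51, and 0.87 among entries with 50 or more reads. On summed known miRNA reads the ratio was 0.985 for novel_miR149, 0.959 for novel_miR151, 0.878 for novel_miR284, 0.920 for novel_miR302, 0.930 for novel_miR4 and 0.973 for novel_miR71. Which scale is right was not tested.

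The share with a first U, 56.2%, was 84.3% weighted by reads in A, 81.8% by reads in J and 69.4% among entries with 50 or more reads. Of 34 entries in 1 library, 15 had 50 or more reads, and 32 remained without those contained in an entry listed in the other library (chosen after seeing the data). Entries with a degradome record numbered 11, but 5 at a score of at most 3 and 3 with the site opposite base 10. The 37 gene models became 21 and 6 by these rules, and 22 when the same bases and count were counted once. A site count of at least 50 left 8 entries and 26 gene models. Overlap by a shared run held 4 entries at 18, 16 or 14 bases, and 8 more had a relative within 3 mismatches. The 5 strand pairs with 17 or more of 19 bases paired became 10 at 15 or more, and 0 at 17 or more without G:U pairs (both chosen after seeing the data).

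No paired analysis was possible because each phase is 1 library. Depth limits the entries of 50 reads or fewer, and the levels of entries listed at 0 are not known from these counts. By qRT-PCR, which was not analysed here, the paper reports novel_miR486 and novel_miR492 as higher in J than in A leaves from April to June. It reports the same for novel_miR207 from May to June.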
